A study of Mus musculus with 16 samples.

Results

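Eosinophils, basophils and mast cells are granule-bearing blood cells that are few in number, and this account follows 9 genes that mark them across mouse fetal liver of 4 genotypes and 2 stages. The genes were taken by symbol: Ear6, Epx, Prg2, Cpa3, Tpsb2, Prss34, Mcpt8, Fcer1a and Ms4a2. These genes, and the lists of other markers below, were chosen with earlier results of these data known. Counts of called genes therefore only describe them. Each of the 9 was found, each with 1 probe set that names it alone, among 28270 probe sets in all. Of these, 6 (Ear6, Epx, Prg2, Cpa3, Tpsb2 and Prss34) rose above a low-signal level of 3.74 (log2) on at least 2 arrays and could be tested among 16258 genes. Mcpt8, Fcer1a and Ms4a2 stayed below it on all 16 arrays and are described only.

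The samples were single-cell suspensions of fetal liver at E12.5 and E14.5. The embryos were wild type (WT), ERG transgenic (labelled ERG Tg, here ERG), of the genotype labelled WT/GATA1s (here GATA1s), or had both alterations (ERG/GATA1s). The transcription factor ERG acts in blood stem cells and in megakaryocytes, and GATA1s is the short isoform of GATA1, which lacks the start of the protein. Each of the 8 groups held 2 arrays, 1 labelled female and 1 labelled male. The mouse strain, the promoter that drives the transgene, the number of GATA1s copies in females, and the number of embryos behind each sample were not stated in the sources. Nothing says that the arrays of a group came from separate litters, so the p-values cover only the scatter of these samples. Sex markers, described below, differed between the 2 arrays of E12.5 ERG, of E14.5 WT and of E14.5 GATA1s, so these were not repeats of 1 sample. In the remaining groups the scatter may be technical. The number of arrays limits the precision.

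Eosinophils fill their granules with toxic cationic proteins: major basic protein (Prg2), eosinophil peroxidase (Epx) and ribonucleases of the Ear family (Ear6). Mast cells store proteases with heparin, among them carboxypeptidase A3 (Cpa3) and tryptase (Tpsb2), while basophils carry the proteases Mcpt8 and Prss34. Both of the latter cell types bind IgE through a receptor whose alpha and beta chains are Fcer1a and Ms4a2. Full-length GATA1 and GATA2 are known regulators of all 3 lineages, and loss of GATA1 function is known to impair eosinophil development.

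Some arrays went against their labels. Xist, transcribed from the inactive X of females, and the mean signal of Uty, Kdm5d and Eif2s3y, which lie on the Y chromosome, were both on the side of the other sex on 3 arrays: the male arrays of E12.5 GATA1s and E12.5 ERG/GATA1s and the female array of E14.5 ERG/GATA1s. The E12.5 WT and E14.5 ERG arrays labelled male carried both kinds of signal. Labelled sex was a covariate unless another setting is named, and "female" and "male" below mean the label. Pairs below are arrays matched by that label alone, some with an array of opposing markers, so pair counts are only a description. Overlap of arrays between groups was not counted over all genes, so it too is only a description. Calls that rest on these arrays are given without them as well. The tissue label held: the mean signal of 6 hepatocyte markers was 9.36 to 11.64 and that of 6 erythroid markers 9.28 to 10.73, as the lowest and highest array.

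Promoter sequences are shown for 4 of the genes because GATA factors bind DNA at GATA sites and because Ear6, Epx and Cpa3 fell together in ERG at E14.5; Ms4a2 held the most matches. They come from RefSeq (GRCm38.p6), which held a promoter for 7 of the 9 genes, with none for Prg2 and Tpsb2. Each run is the 250 bases before the transcript start, 5′ to 3′ on the gene's strand. Capitals mark a GATA match (AGATAA or TGATAA, either strand). The windows are chr14:51853518-51853767 (+) for Ear6, chr11:87875537-87875786 (-) for Epx, chr3:20242182-20242431 (-) for Cpa3 and chr19:11623720-11623969 (-) for Ms4a2.
Ear6: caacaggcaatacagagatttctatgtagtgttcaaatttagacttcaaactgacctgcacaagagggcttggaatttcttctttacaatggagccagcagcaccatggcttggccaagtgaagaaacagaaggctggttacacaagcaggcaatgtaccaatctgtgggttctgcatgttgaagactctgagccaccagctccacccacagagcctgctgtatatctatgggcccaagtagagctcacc
Epx: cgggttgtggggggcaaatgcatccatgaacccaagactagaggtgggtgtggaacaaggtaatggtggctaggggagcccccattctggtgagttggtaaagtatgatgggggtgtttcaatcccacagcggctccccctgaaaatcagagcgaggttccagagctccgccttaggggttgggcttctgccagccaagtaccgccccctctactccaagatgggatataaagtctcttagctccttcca
Cpa3: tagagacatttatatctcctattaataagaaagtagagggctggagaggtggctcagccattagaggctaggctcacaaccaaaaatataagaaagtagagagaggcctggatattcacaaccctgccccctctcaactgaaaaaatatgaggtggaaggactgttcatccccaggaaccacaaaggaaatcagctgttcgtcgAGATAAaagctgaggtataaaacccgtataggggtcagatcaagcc
Ms4a2: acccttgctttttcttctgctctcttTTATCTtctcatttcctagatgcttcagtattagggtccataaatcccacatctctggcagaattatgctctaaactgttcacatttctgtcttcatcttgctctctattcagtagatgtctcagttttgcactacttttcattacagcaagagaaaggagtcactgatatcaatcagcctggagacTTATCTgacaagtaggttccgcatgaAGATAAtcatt

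In Cpa3 the GATA match lay 46 to 41 bases before the start. Ms4a2 had 3 matches, beginning 224, 37 and 11 bases before the start. Single matches were found in Prss34 (31 bases before the start) and Fcer1a (92 bases, opposite strand), so 4 of the 7 windows held one, against 16.6% of all 32851 RefSeq windows of this length. The windows of Ear6, Epx and Mcpt8 held none. ERG binds ETS sites, of which only the spellings AGGAAG and CGGAAG (either strand) were searched for. They were in 0 of the 7 windows and in 39.2% of all windows. Shorter or other ETS spellings were not searched for. The letters GGAA, shared by both spellings, can be read on either strand in each window printed above. How often they occur in all windows was not counted. A match is a description of letters, and a window without one says only that these letters are not there.

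The signal of the 9 genes fell into 3 tiers, and since signal depends on the probes it gives no order of RNA amounts between genes. Eosinophil granule genes were well detected: Prg2 ran from 6.31 to 8.14, Ear6 from 5.37 to 8.92 and Epx from 4.53 to 7.78 on the log2 scale over the 16 arrays. Cpa3, listed here with the mast cell genes, was lower, from 4.03 to 6.78. Which cells its signal came from was not tested. Tpsb2 (3.94 to 4.33) and Prss34 (3.51 to 4.12) lay just above the low-signal level on 16 and 14 arrays. Below it on every array were Mcpt8 (3.01 to 3.63), Ms4a2 (3.07 to 3.45) and Fcer1a (2.64 to 3.0).

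**Figure D1:**
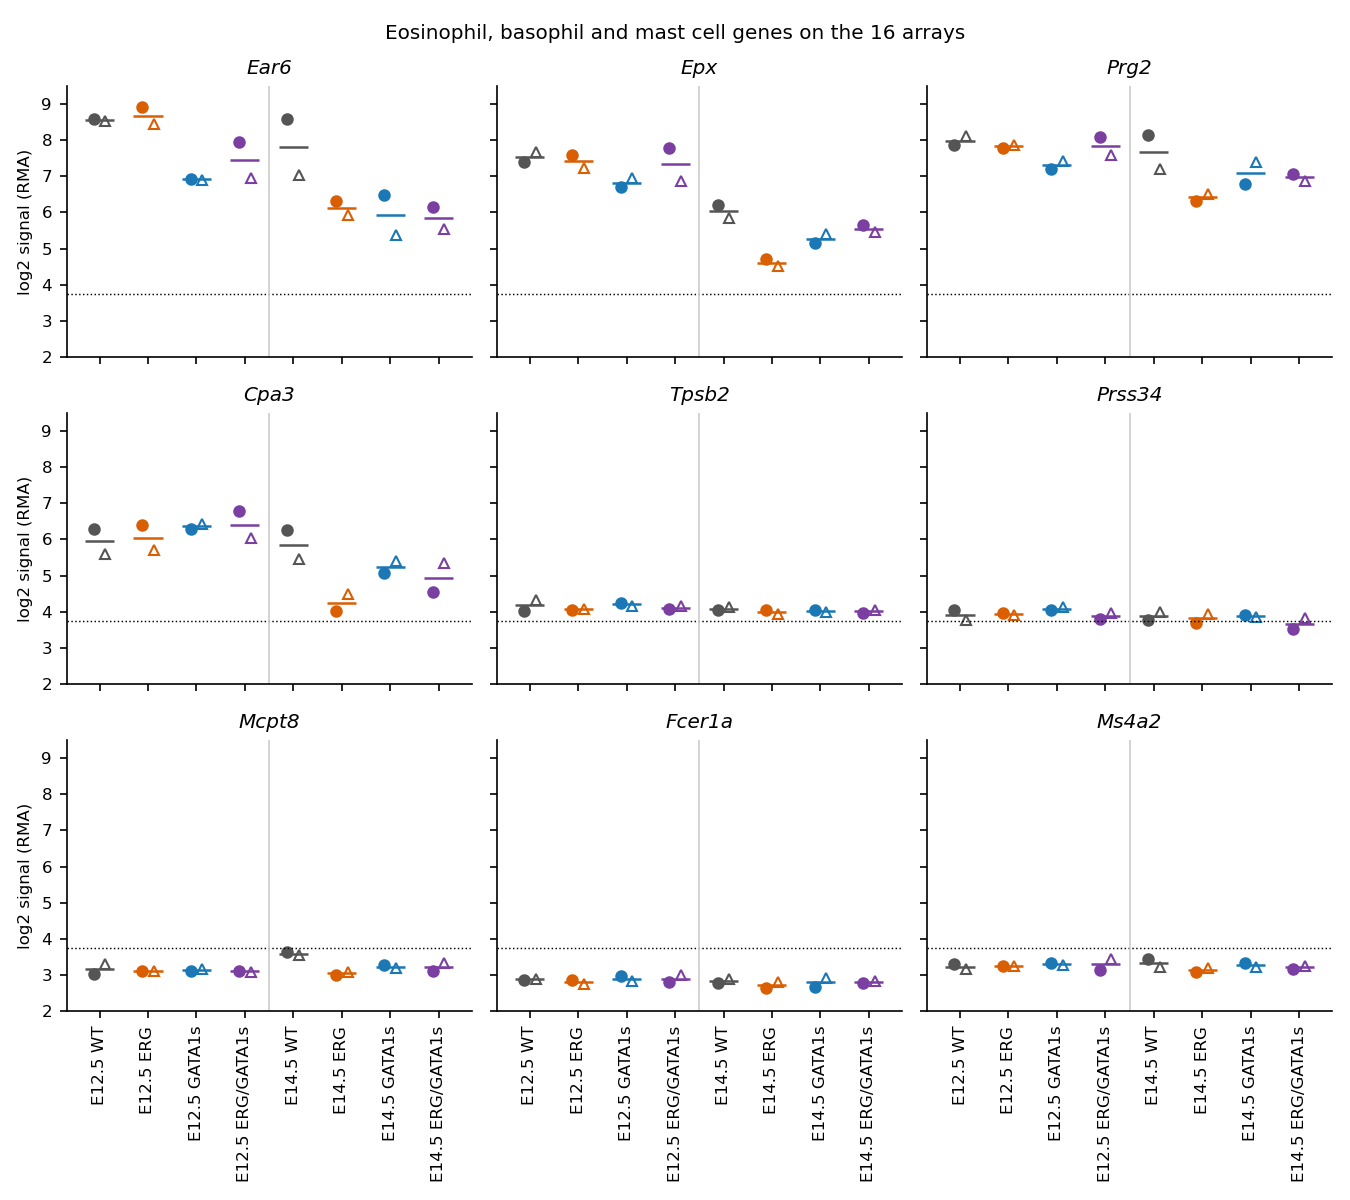
Log2 signal of each of the 9 genes (y axis) in the 8 groups (x axis); filled circles are arrays labelled female, open triangles arrays labelled male, short bars the mean of the 2, and the dotted line the low-signal level of 3.74. Ear6, Epx, Prg2 and Cpa3 differ visibly between groups while the other 5 genes stay near or under the dotted line.

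Other genes of these lineages ranged from well detected to undetected. Prg3, a homologue of major basic protein, ran from 4.86 on an E14.5 ERG array to 6.93 on an E12.5 WT array. Kit, the growth factor receptor of mast cells and blood progenitors, averaged 7.47 over the arrays, and the histamine-making enzyme Hdc 6.72. Of 26 measured mast cell genes, Cpa3 and Tpsb2 included, 18 could be tested. The eosinophil receptors Il5ra and Ccr3, the basophil surface gene Cd200r3 and the mast cell genes Cma1, Mcpt1, Mcpt2, Mcpt4, Mrgprb1, Mrgprb2 and Rgs13 were not above the low-signal level. Of 43 further genes listed for the 3 lineages, 38 had a probe set of their own and 25 could be tested. Ear1, Ear2 and Ear10 had none. The Ear genes are near-identical copies, so how far the Ear6 probe set also measures its relatives was not tested.

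Between the stages Ear6, Epx, Prg2 and Cpa3 were all lower at E14.5 than at E12.5 when the 4 genotypes were averaged. Epx, the peroxidase, read 7.40 and 7.66 in E12.5 WT (female, then male, here and below), 7.60 and 7.23 with ERG, 6.70 and 6.95 with GATA1s, then 7.78 and 6.88 with both. At E14.5 its values were 6.22 and 5.86, 4.70 and 4.53, 5.15 and 5.40, and 5.65 and 5.45 in the same order. Every E14.5 array lay below every E12.5 array.

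Epx fell 3.75-fold between the stages (log2 change -1.90 ± 0.12 SE, 8 arrays against 8, limma adjusted p = 4.24e-08). Ear6 fell 2.78-fold (-1.48 ± 0.15, adjusted p = 2.49e-06), Cpa3 2.17-fold (-1.12 ± 0.17, adjusted p = 0.000121) and Prg2 1.63-fold (-0.70 ± 0.14, adjusted p = 0.000738). For these 3 the stages overlapped: Ear6 spanned 6.91 to 8.92 at E12.5 and 5.37 to 8.60 at E14.5. The count was 4 of 6 tested genes lower, against 27.2% of all genes lower in this comparison, where 56.2% were called in either direction. Markers of other cells moved between the stages as well. All 6 hepatocyte markers (median 1.46) and all 8 macrophage markers (median 1.23) were higher at E14.5, and of 9 neutrophil genes 7 were lower and 1 higher (median -0.79). The mean signal of the hepatocyte markers was 9.36 to 10.63 at E12.5 and 11.07 to 11.64 at E14.5. Of 25 tested genes of a wider list for the 3 lineages 18 were lower and 3 higher, with a median of -0.28 against -0.03 over all genes. The part of these cells in the stage differences was not tested.

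The calls of all 4 genes between stages held without any 1 array and without the 3 arrays of opposing sex markers.

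Within WT alone the picture was narrower. Epx fell 2.81-fold from E12.5 to E14.5 (-1.49 ± 0.23, adjusted p = 0.00109, lower in 2 of 2 pairs of the same labelled sex), 1 of 6 tested genes against 6.75% of all genes lower and 18.2% called. Ear6 went from 8.59 and 8.54 to 8.60 and 7.05, and Prg2 from 7.86 and 8.11 to 8.14 and 7.19, so the E14.5 WT female array stayed at E12.5 levels for both and the male array did not. Their changes, -0.74 ± 0.29 and -0.32 ± 0.27, did not pass (adjusted p = 0.0956 and 0.468), but without the E14.5 WT female array they were -1.25 and -0.84 and passed (adjusted p = 0.0121 and 0.0456). Cpa3 read 6.30 and 5.60, then 6.26 and 5.46 (-0.09 ± 0.35, adjusted p = 0.895).

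**Figure D2:**
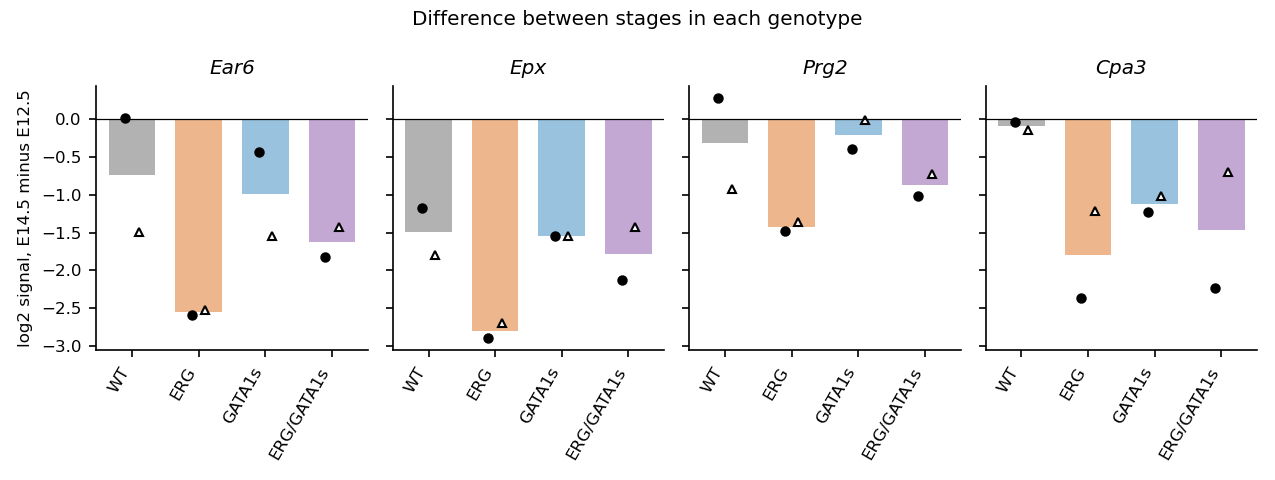
Log2 signal at E14.5 minus E12.5 (y axis) for 4 genes in each genotype (x axis); bars are differences of group means, circles and triangles the differences between arrays labelled female and male. ERG has the most negative bar in each panel, from -1.42 for Prg2 to -2.80 for Epx, and WT is nearest 0 for Ear6 (-0.74), Epx (-1.49) and Cpa3 (-0.09).

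The stage difference by genotype was -2.80 for Epx in ERG, against -1.49 in WT, -1.55 in GATA1s and -1.78 in ERG/GATA1s. For Cpa3 it was -1.79 in ERG, -1.12 in GATA1s, -1.46 in ERG/GATA1s and -0.09 in WT. An F test over the 3 stage by genotype terms asked, for each gene, whether the effect of genotype depended on stage. None of the 6 passed (0 of 6, against 2.42% of all genes), with 4 at an unadjusted p under 0.05: Ear6 (adjusted p = 0.0813), Epx (0.102), Cpa3 (0.221) and Prg2 (0.256). Without the E14.5 WT male array Ear6 and Prg2 passed (adjusted p = 0.0065 and 0.0187). Epx passed without either E12.5 ERG/GATA1s array (adjusted p = 0.0254 and 0.045 without the female and the male array).

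What the ERG transgene changes was asked against WT at each stage. At E12.5 the ERG arrays lay at WT levels, while at E14.5 Ear6, Epx, Prg2 and Cpa3 all fell, by 2.38-fold to 3.25-fold. The difference in ERG change between the stages passed for none of the 4 (limma, 0.228% of all genes called). It was -1.82 ± 0.41 for Ear6 (adjusted p = 0.127), -1.31 ± 0.33 for Epx (0.183), -1.70 ± 0.49 for Cpa3 (0.291) and -1.10 ± 0.39 for Prg2 (0.464). Ear6 read 8.60 and 7.05 in E14.5 WT and 6.33 and 5.92 in ERG. Cpa3, the carboxypeptidase, read 6.26 and 5.46 in WT and 4.03 and 4.48 in ERG. Prg2 read 8.14 and 7.19 in WT and 6.31 and 6.52 in ERG. For each of the 4 genes, both ERG arrays lay below both WT arrays. How many of all genes separate in this way was not counted, so this adds no support to the calls.

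Limma gave log2 changes of -1.70 ± 0.29 for Ear6 (adjusted p = 0.00834), -1.42 ± 0.23 for Epx (0.00668), -1.60 ± 0.35 for Cpa3 (0.0316) and -1.25 ± 0.27 for Prg2 (0.0342), each lower in 2 of 2 pairs. That is 4 of 6 tested genes lower, against 0.504% of all genes lower (1.69% in either direction). Because the genes were chosen with earlier results known, this count is a description and no test of the set. The calls leaned on single arrays. Without the E14.5 ERG female array none held (adjusted p = 0.192, 0.109, 0.594 and 0.515 for Ear6, Epx, Cpa3 and Prg2), nor without the E14.5 WT female array, where the changes were -1.19, -1.31, -1.24 and -0.73. Prg2 was also lost without the E14.5 ERG male array (0.0963). Cpa3 and Prg2 lay close to the threshold: without either E12.5 GATA1s array their adjusted p was 0.0547 and 0.0578, and without the 3 arrays of opposing sex markers 0.0602 and 0.121, while Ear6 (0.0457) and Epx (0.0162) held there. Ear6 was not called without a sex term (0.103), and none of the 4 was when only the 4 arrays compared were fitted (0.581 to 0.649).

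At E12.5 limma called 0 of 6 in ERG against WT, and 0% of all genes. None had an unadjusted p under 0.05, and the changes were 0.12 ± 0.29 for Ear6, -0.11 ± 0.23 for Epx, -0.15 ± 0.27 for Prg2 and 0.10 ± 0.35 for Cpa3. Averaged over both stages, 0 of 6 passed (0.0431% of all genes were lower and 0.283% called), with 4 at an unadjusted p under 0.05. Epx was nearest (-0.77 ± 0.16, adjusted p = 0.0742, lower in 3 of 4 pairs), and passed without either E12.5 ERG/GATA1s array (0.0305). Ear6 (-1.05, adjusted p = 0.0205) and Prg2 (-0.96, 0.0157) passed without the E14.5 WT male array.

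**Figure D3:**
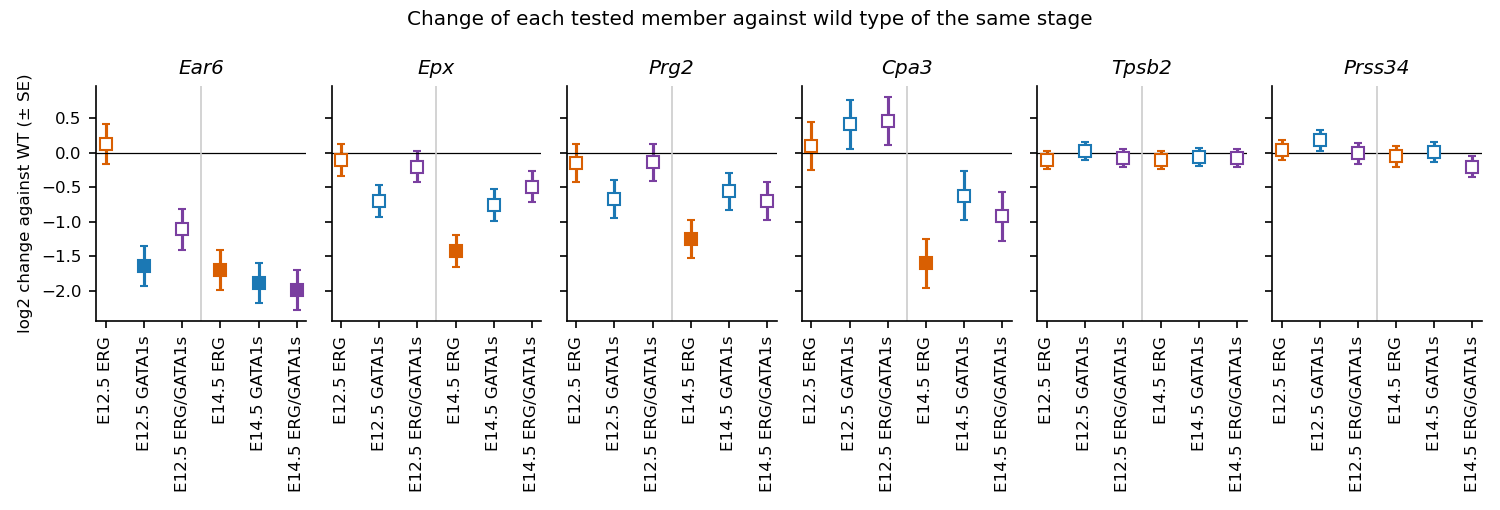
Log2 change against WT of the same stage (y axis, ± SE from limma) for the 6 tested genes, by stage and genotype (x axis); filled squares passed the threshold of 0.05 after adjustment over all genes. Filled squares are 4 for Ear6, 1 each for Epx, Prg2 and Cpa3, and 0 for Tpsb2 and Prss34, whose values lie near 0.

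Neutrophil granule genes moved with these falls. Of 9 neutrophil genes 4 fell in ERG at E14.5 (log2 changes of -1.51 for Ctsg, -1.30 for Elane, -1.27 for Mpo and -1.10 for Prtn3), with a list median of -1.17 against 0.00 over all genes. The list's mean signal was 8.19 and 7.34 in WT and 6.56 and 6.71 in ERG. Of 6 megakaryocyte markers 3 fell (Itgb3, Ppbp and Pf4) and 1 rose (Gp5), with a median of -0.87 and mean signals of 8.41 and 8.48 in WT and 7.96 and 8.24 in ERG. Of 8 macrophage markers 2 fell (Csf1r and Mertk), with a median of -0.52 and mean signals of 7.12 and 7.45 in WT and 6.61 and 6.89 in ERG. The part of these cells in the result was not tested. In bulk samples fewer cells of a type and less RNA per cell cannot be told apart. Gata2, a regulator of mast cells and progenitors, went the other way, from 6.05 and 6.31 to 8.79 and 8.30 (2.37 ± 0.23, adjusted p = 0.000198). It rose alike in ERG/GATA1s at E14.5 (2.38 ± 0.23, adjusted p = 6.31e-05). In GATA1s alone Gata2 was higher than in WT over both stages (0.69 ± 0.16, adjusted p = 0.0306). By stage the GATA1s change did not pass (0.99 ± 0.23 at E12.5 and 0.4 ± 0.23 at E14.5, adjusted p = 0.0509 and 0.509). In WT Gata2 fell from E12.5 to E14.5 (-1.33 ± 0.23, adjusted p = 0.00182). Neither Gata1 (0.03 ± 0.17, adjusted p = 0.996) nor Erg (0.26 ± 0.14, 0.673) was called in ERG at E14.5. Erg was not called in ERG at E12.5 either (0.17 ± 0.14, adjusted p = 0.957). In ERG/GATA1s over both stages Erg was called higher than in WT (0.39 ± 0.1, adjusted p = 0.0252). Whether the Erg probe set reads the transgene was not tested, so these values do not show how much ERG the embryos made. A link of these factors to the falls was not tested.

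In the wider list 1 of 25 genes rose and 1 fell in ERG at E14.5, where 1.69% of all genes were called, and the median change was -0.20 against 0.00 over all genes. Alox5, the enzyme that starts leukotriene synthesis, rose 4.68-fold (2.22 ± 0.29, adjusted p = 0.00134). Hdc, which makes histamine, fell 1.74-fold (-0.80 ± 0.17, adjusted p = 0.0268), from 6.60 and 6.34 in WT to 5.63 and 5.71. Prg3 was at -0.72 ± 0.18 and did not pass (adjusted p = 0.0607).

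The GATA1s genotype was set against WT in the same way. Ear6 fell at both stages, by 3.13-fold at E12.5 and 3.72-fold at E14.5, and Epx fell when both stages were averaged. At E12.5 Ear6 read 8.59 and 8.54 in WT and 6.93 and 6.91 in GATA1s, with arrays of a group within 0.05 of each other and far from the other group. At E14.5 GATA1s read 6.49 and 5.37, again below both WT arrays.

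Over both stages Ear6 fell 3.41-fold (-1.77 ± 0.21, adjusted p = 0.000536, lower in 4 of 4 pairs), a call that held without any 1 array and without the 3 arrays of opposing sex markers (adjusted p = 0.0262). Epx fell 1.66-fold (-0.73 ± 0.16, adjusted p = 0.0254, 4 of 4 pairs). Its call was lost without the E12.5 WT male, E12.5 GATA1s female, E14.5 WT female or E14.5 GATA1s female array (adjusted p = 0.145, 0.17, 0.0809 and 0.114), and it held without the 3 arrays of opposing sex markers (-0.82, 0.0481). Together 2 of 6 were lower, against 1.63% of all genes lower and 3.81% called. Prg2 was 0.62 ± 0.19 lower and did not pass (adjusted p = 0.0937), but passed without the E14.5 WT male array (-0.88, adjusted p = 0.00761). Cpa3 was at -0.11 ± 0.24.

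By stage the calls were fewer. Ear6 was 1 of 6 lower at E12.5 (-1.64 ± 0.29, adjusted p = 0.0201, against 0.511% of all genes lower and 1.33% called) and 1 of 6 at E14.5 (-1.89 ± 0.29, adjusted p = 0.00625, against 0.314% lower and 1.07% called). Both E12.5 GATA1s arrays had female sex markers, so genotype and sex are mixed in the E12.5 value. With Y-linked signal as the covariate that value was -1.86 (adjusted p = 0.0141). The E12.5 call was lost without the E12.5 WT male array (-1.30, adjusted p = 0.328), the GATA1s female array (-1.28, 0.287), the GATA1s male array (-2.01, 0.126) or the 3 arrays of opposing sex markers (-2.0, 0.173). At E14.5 it was lost without the WT female array (-1.38, adjusted p = 0.0737) or the GATA1s male array (-1.63, 0.0886). Prg2 was not called at E14.5 (-0.56 ± 0.27, adjusted p = 0.396) but passed without the E14.5 WT male array (-1.08, 0.0227). Cpa3 was 0.41 ± 0.35 above WT at E12.5 and 0.62 ± 0.35 below at E14.5 (adjusted p = 0.587 and 0.483), and the difference between these did not pass (-1.03 ± 0.49, adjusted p = 0.522).

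Other members of the 3 lineages went in both directions with GATA1s. Of the 25 tested genes of the wider list 3 rose and 1 fell over both stages (median 0.11 against 0.00 over all genes, of which 3.81% were called). Ccl3, a chemokine that mast cells and other myeloid cells release, rose 3.91-fold (1.97 ± 0.18, adjusted p = 0.000188). By stage it was called at E14.5 (3.26 ± 0.26, adjusted p = 3.43e-05), and no gene of the wider list was called at E12.5. In WT Ccl3 fell 16.6-fold from E12.5 to E14.5 (-4.05 ± 0.26, adjusted p = 4.14e-06). Over both stages, Alox5 rose with GATA1s by 0.99 ± 0.20 (adjusted p = 0.0173). Fcer1g, the shared gamma chain of the IgE and other Fc receptors, rose by 0.78 ± 0.14 (adjusted p = 0.00939). Prg3 fell (-0.51 ± 0.12, adjusted p = 0.0376). Of 6 megakaryocyte markers 5 rose, with a median of 1.06, and of 9 neutrophil genes 0 were called (median 0.36). Of 6 hepatocyte markers 3 fell at E12.5 (-1.24 for Fgb, -1.22 for Trf and -0.98 for Afp), with a median of -1.07 and mean signals of 10.47 and 10.33 in WT and 9.40 and 9.36 in GATA1s. At E14.5 0 of the 6 were called (median 0.30), and over both stages Afp fell (-0.43 ± 0.09, adjusted p = 0.0209). The part of these cells in the result was not tested.

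In embryos with both alterations Ear6 was called lower than WT at E14.5 and over both stages, but not at E12.5 alone. Its E12.5 arrays read 7.96 and 6.95, and its E14.5 arrays 6.14 and 5.53. All 4 arrays lay below the WT arrays of their stage. Over both stages Ear6 fell 2.93-fold (-1.55 ± 0.21, adjusted p = 0.00075, 4 of 4 pairs). This was 1 of 6 lower, against 6.52% of all genes lower and 10.6% called. The call held without any 1 array and without the 3 arrays of opposing sex markers (-1.45, adjusted p = 0.0456). Epx (-0.34 ± 0.16, adjusted p = 0.216) and Prg2 (-0.42 ± 0.19, 0.2) did not pass. Epx passed without the E12.5 ERG/GATA1s female array (-0.56, adjusted p = 0.0181), and Prg2 without the E14.5 WT male array (-0.68, 0.0175).

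At E14.5 Ear6 was 3.97-fold below WT (-1.99 ± 0.29, adjusted p = 0.000808), 1 of 6 against 4.69% of all genes lower and 9.16% called. Both E14.5 ERG/GATA1s arrays had male sex markers, so genotype and sex are mixed in that value. With Y-linked signal as the covariate the change was -1.38 (adjusted p = 0.0274), and without the 3 arrays of opposing sex markers it was -1.93 (0.0459). Epx (-0.49 ± 0.23), Prg2 (-0.70 ± 0.27) and Cpa3 (-0.92 ± 0.35) did not pass (adjusted p = 0.25, 0.147 and 0.13). Prg2 passed without the E14.5 WT male array (-1.22, adjusted p = 0.00814) and Cpa3 without the E14.5 ERG/GATA1s male array (-1.46, 0.0469). At E12.5 none of 6 passed (0.00615% of all genes were lower), and 1, Ear6, had an unadjusted p under 0.05 (-1.11 ± 0.29, adjusted p = 0.158). It passed without the ERG/GATA1s female array (-1.31, adjusted p = 0.0354).

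At E14.5 the lowest Epx was in ERG alone, not in ERG/GATA1s. Epx read 4.70 and 4.53 in ERG alone and 5.65 and 5.45 in the double genotype, with GATA1s between them and no overlap between any of the 4 genotypes. Cpa3 kept the same order of ERG below ERG/GATA1s (4.03 and 4.48 against 4.55 and 5.34), and Prg2 did too (6.31 and 6.52 against 7.07 and 6.87). Ear6 was at a similar level in the 3 altered genotypes, with means of 6.12, 5.93 and 5.84 in ERG, GATA1s and ERG/GATA1s, differences smaller than the range within each group.

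Whether the ERG effect depends on GATA1s was tested at E14.5 as (ERG/GATA1s minus GATA1s) minus (ERG minus WT). Epx had an interaction of 1.70 ± 0.33 (adjusted p = 0.0994), Ear6 of 1.60 ± 0.41 (0.321), Cpa3 of 1.31 ± 0.49 (0.752) and Prg2 of 1.12 ± 0.39 (0.683). All 4 had an unadjusted p under 0.05. They were positive within each sex label, though only 0.13 for Prg2 between arrays labelled male. Both E14.5 ERG/GATA1s arrays had male sex markers, so genotype and sex are mixed in these values. None of 6 passed, against 0.0984% of all genes. Epx, Ear6 and Prg2 passed without the E14.5 WT male array (1.82, 2.12 and 1.64, adjusted p = 0.0325, 0.0157 and 0.0302), and Epx without either E12.5 ERG/GATA1s array (0.0397).

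Neutrophil genes moved in the same direction in that comparison, with 4 of 9 called higher. Ctsg (2.54 ± 0.42), Prtn3 (2.37 ± 0.26), Elane (2.30 ± 0.31) and Mpo (1.85 ± 0.23) led, with adjusted p from 0.00338 to 0.0442. In E14.5 embryos with both, the list's mean signal was 8.66 and 8.23. Csf2rb2, a receptor chain for IL-3, was the gene of the wider list called (1.18 ± 0.20, adjusted p = 0.0459). Their part in the result was not tested.

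Directly, ERG/GATA1s against ERG over both stages gave a lower Ear6 (-0.76 ± 0.21, adjusted p = 0.0364), 1 of 6 against 5% of all genes lower and 9.02% called. The call was lost without any 1 of 7 of the 8 arrays compared, the exception being the E12.5 ERG/GATA1s female array, with adjusted p up to 0.163. Without the 3 arrays of opposing sex markers it was -0.66 (adjusted p = 0.306). With Y-linked signal as the covariate the Ear6 change was -0.48 (adjusted p = 0.241). Xist read 10.65 and 10.03 in E14.5 ERG and 4.22 and 4.19 in E14.5 ERG/GATA1s, so genotype and sex are mixed here too. Epx (0.42 ± 0.16, adjusted p = 0.126) and Cpa3 (0.53 ± 0.24, 0.207) were higher and did not pass. Epx passed without the E12.5 ERG/GATA1s male array (0.64, adjusted p = 0.0253). Against ERG, 7 of 25 tested genes of the wider list rose over both stages and 0 fell. All 9 neutrophil genes rose (median 1.31), and so did Cebpe of the eosinophil list (0.50 ± 0.12, adjusted p = 0.0221). The part of these cells in the result was not tested. In ERG/GATA1s against GATA1s 0 of 6 passed (0.0861% of all genes were lower and 0.117% called), with 1, Epx, at an unadjusted p under 0.05 (0.39 ± 0.16, adjusted p = 0.566).

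In the wider list 6 of 25 genes rose in ERG/GATA1s at E14.5 and 0 fell, where 9.16% of all genes were called. Ccl3 rose 13.1-fold (3.71 ± 0.26), Alox5 3.25-fold (1.70 ± 0.29), Csf2rb, the common beta chain of the IL-3, IL-5 and GM-CSF receptors, 3.18-fold (1.67 ± 0.29) and Csf2rb2 2.45-fold (1.29 ± 0.14), with adjusted p from 6.54e-06 to 0.00255. Prg3 (-0.24 ± 0.18) and Hdc (0.10 ± 0.17) did not pass. In the same comparison all 6 erythroid markers fell (median -1.01), 4 of 6 megakaryocyte markers rose (median 1.32), 4 of 9 neutrophil genes rose (median 0.58) and 1 of 8 macrophage markers fell (median -0.33). The erythroid mean signal was 10.73 and 10.36 in WT against 9.60 and 9.28. The part of these cells in the Ear6 result was not tested.

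**Figure D4:**
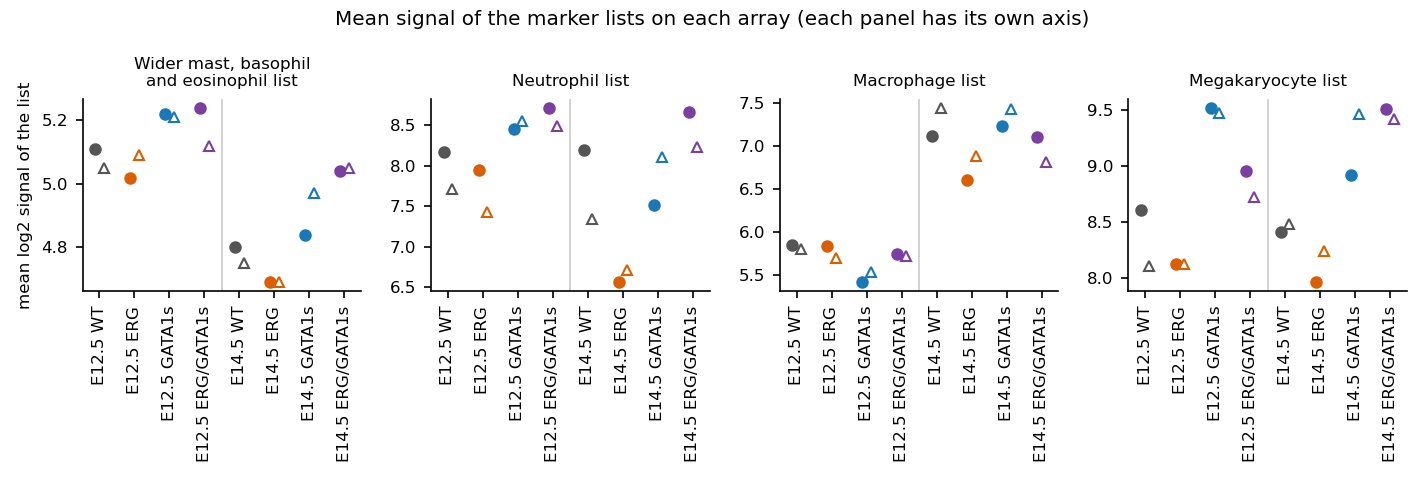
Mean log2 signal (y axis, a separate scale in each panel) of the wider list of 38 measured genes without the 9 described here, and of the neutrophil, macrophage and megakaryocyte lists, by group (x axis); circles are arrays labelled female, triangles arrays labelled male. Neutrophil signal is lowest in E14.5 ERG (6.56 and 6.71), and macrophage signal is higher at E14.5 (6.61 to 7.45) than at E12.5 (5.41 to 5.84).

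Tpsb2 and Prss34 passed in none of the comparisons as fitted. Over the 14 comparisons of group means Tpsb2 changed by -0.11 to 0.08 and Prss34 by -0.20 to 0.18, with lowest adjusted p of 0.156 and 0.124. Prss34 passed once, over the 4 genotypes between stages without the E12.5 WT male array (-0.19, adjusted p = 0.0442). At signals this near the low-signal level a change in RNA can be larger than the change in signal. Mcpt8, the basophil protease, read 3.63 and 3.54 in E14.5 WT and 3.01 to 3.34 on the other 14 arrays. Those WT arrays did not overlap with any other group, yet lay under the low-signal level, so Mcpt8 was not among the genes tested. With no low-signal filter its rise from E12.5 to E14.5 in WT passed (0.43, adjusted p = 0.0309), and its change in ERG at E14.5 did not (-0.53, adjusted p = 0.052). For the IgE receptor chains the group means spanned 2.72 to 2.90 (Fcer1a) and 3.12 to 3.34 (Ms4a2), and each group overlapped with its neighbours in that order.

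Ordered by group mean, Ear6 ran from ERG (8.68) and WT (8.56) at E12.5 through E14.5 WT (7.82), E12.5 ERG/GATA1s (7.46) and E12.5 GATA1s (6.92) to the 3 altered groups at E14.5. Neighbouring groups overlapped except at E12.5 ERG/GATA1s against E12.5 GATA1s, and E12.5 GATA1s against E14.5 ERG. Prg2 ran from 7.98 in E12.5 WT to 6.41 in E14.5 ERG, and its only step without overlap was the last, from E14.5 ERG/GATA1s (6.97) to E14.5 ERG. Cpa3 ran from 6.41 in E12.5 ERG/GATA1s to 4.26 in E14.5 ERG. Its 5 highest groups overlapped with their neighbours, down to E14.5 WT (5.86).

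The genes whose signal ran most like each member over the 16 arrays were found by Pearson's r, as a description; arrays share stage and genotype, so r within each stage (8 arrays) is given too. Prg3 was among the nearest to both Epx (0.957; 0.77 at E12.5 and 0.91 at E14.5) and Prg2 (0.888; 0.86 and 0.95). Epx was also near the globin gene Hbb-bh2 (0.961; 0.89 and 0.81) and Gtf2ird1 (0.959; 0.82 and 0.83). Nearest to Ear6 were Cabin1 (0.955; 0.92 and 0.95), Rfx5 (0.932; 0.83 and 0.94) and Bard1 (0.918; 0.95 and 0.91). Ear6 itself spanned 5.37 to 8.92, whereas Cabin1 spanned 7.72 to 8.46.

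Prg2 was also near Fcnb, a ficolin of myeloid cells (0.880; 0.69 and 0.84), and Ano1 (0.870; 0.73 and 0.80). Cpa3 ran most like Mc5r (0.909; 0.86 and 0.87), Satb1 (0.896; 0.86 and 0.75) and the histone gene H3c4 (0.892; 0.86 and 0.72), whose copies are near-identical. For Tpsb2 the nearest were A830092H15Rik (0.878), Clnk (0.877) and Ttll11 (0.865). For Prss34 they were Mir7-2 (0.797), Egfem1 (0.794) and Nmb (0.784), while Prss34 itself spanned only 3.51 to 4.12.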

How the data were processed

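Total RNA from 16 samples was labelled with biotin and hybridised to Affymetrix whole-transcript arrays, per the labels' protocols. The authors deposited log2 signals for each probe set, computed with RMA according to the submitters' processing notes (no version given). Of 28270 probe sets 21780 had 1 gene symbol, 1617 several and 4873 none. For a symbol with several probe sets the one with the highest mean stood for it. A probe set entered the tests if at least 2 arrays exceeded 3.74, the 30th percentile of the table, which left 16258 test units. All 16 arrays were fitted with limma 3.58.1 in R 4.3.3, with 1 mean per group and labelled sex as covariate (7 residual degrees of freedom). The median residual SD was 0.161. Array medians were 4.79 to 4.94. Moderated tests (eBayes) were two-sided, and p-values were adjusted by Benjamini-Hochberg across every test unit, with a threshold of 0.05. The fit was tested on simulated data.

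The members and lists were chosen with earlier results of these data known. Named besides the 9 genes were up to 4 called genes per list and comparison, the 3 genes most like each member, Gata1, Gata2, Erg, sex markers and the lists' defining markers. Promoter windows were searched for letters only. Alternatives were no filter or a stricter one, quantile normalization, median centring, no sex term, Y-linked signal as covariate, only the arrays compared, arrayWeights, trend and robust eBayes, the mean of probe sets, and arrays left out.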

Additional observations from a re-analysis of the deposited data

How the results depend on the processing

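Of 2388 values of the 6 tested genes under alternative settings, 54 lost and 29 gained a call, and 0 called values changed sign; 55 uncalled values changed sign, reaching at most 0.36. The number of genes called, of the 6 and, with no filter, of all 9, moved as follows. With no filter it was 2 for ERG at E14.5 (from 4), 2 for stage in WT (from 1, the added gene being Mcpt8) and 0 for ERG/GATA1s against ERG (from 1). Without a sex term it was 3 for ERG at E14.5 and 0 for GATA1s at E12.5 and at E14.5 and for ERG/GATA1s against ERG (each from 1). For ERG at E14.5 it was 2 with median centring and 3 with trend and robust eBayes, where Cpa3 was lost (adjusted p = 0.0593). With the 3 arrays of opposing sex markers left out it was 2 for ERG at E14.5 and 0 for GATA1s at E12.5 and for ERG/GATA1s against ERG. Quantile normalization, Y-linked signal as covariate and arrayWeights each gave 0 for ERG/GATA1s against ERG. ArrayWeights gave 1 for ERG over both stages (from 0), 1 for the interaction (from 0) and 2 for the F test (from 0). With only the arrays compared, where 1 residual degree of freedom is left for 2 groups, it was 0 for ERG at E14.5, GATA1s at E12.5 and E14.5, ERG/GATA1s at E14.5 and stage in WT, and 1 for ERG/GATA1s at E12.5 (from 0).

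Leaving out 1 array, which assumes that a lone array varies like the other groups, gave 0 to 4 for ERG at E14.5, 0 to 1 for GATA1s at E12.5, 0 to 2 for GATA1s at E14.5, 0 to 1 for ERG/GATA1s at E12.5, 1 to 2 for ERG/GATA1s at E14.5, 0 to 2 for ERG, 1 to 3 for GATA1s and 1 to 2 for ERG/GATA1s over both stages, 0 to 1 for ERG/GATA1s against ERG, 0 to 3 for the interaction, 1 to 3 for stage in WT, 4 to 5 for stage over the 4 genotypes and 0 to 2 for the F test; ERG at E12.5 and ERG/GATA1s against GATA1s stayed at 0 without any 1 array. Where the cause of a change is not in the setting itself it was not tested. Over all genes, whose shares stand beside the counts, calls ranged from 0 to 3270 for ERG/GATA1s at E12.5 (1 as fitted), 0 to 1959 at E14.5 (1489) and 241 to 4048 over both stages (1720). The ranges were 0 to 504 for ERG at E14.5 (275), 0 to 134 over both stages (46), 0 to 512 for GATA1s at E12.5 (217), 0 to 956 at E14.5 (174) and 141 to 1055 over both stages (620). They were 272 to 3954 for ERG/GATA1s against ERG (1467), 0 to 52 against GATA1s (19), 2 to 178 for the interaction (16), 0 to 3939 for stage in WT (2957), 7340 to 10575 over the 4 genotypes (9135), 6 to 1055 for the F test (393) and 0 to 9 for ERG at E12.5 (0). No paired analysis was possible because the labels give no replicate numbers; arrays of 1 labelled sex were linked only by the sex term.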
